A study of Mus musculus with 18 samples.

Results

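Left ventricles that differed in the share of transcripts assigned to genes removed as mitochondrial or rRNA were compared. The comparison used 17 of the 18 mice of a study of cardiac fibrosis. The authors removed mitochondrial and rRNA genes from their TPM table, which gives transcript abundance corrected for length and scaled to a fixed total per library. The amount by which each mouse's TPM fell short of its nominal total is the share that was assigned to those genes. It is here called the missing share. The mice were chosen by this measured share: 9 mice had a missing share of 23.5% or more and are called high-share, 8 mice had 20.5% or less and are called low-share, and 1 mouse lay between. The share is therefore described and not tested between these groups, and the tests below concern other genes and other measures of the same libraries.

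The study asked what the E3 ubiquitin ligase WWP2 does in the fibrotic heart. It sequenced poly(A)-selected RNA from 9 wild-type (WT) mice and 9 WWP2Mut/Mut littermates on C57BL/6J, whose CRISPR/Cas9 frame-shift mutation is present in all cells and, per the study's methods, is unlikely to impair the C-terminal isoform. Every mouse of both genotypes received angiotensin II (AngII), which raises blood pressure and drives cardiac fibrosis, at 500 ng/kg/min by minipump for 28 days from 8 weeks of age, and a group without AngII is not analysed here. The high-share mice were 5 WT and 4 WWP2Mut/Mut, and the low-share mice were 3 WT and 5 WWP2Mut/Mut. Each mouse is 1 library. The libraries held 24566994 to 37451087 counts, and each of 4 sequencing lanes held both groups.

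Mitochondria carry a small circular genome that encodes core subunits of the respiratory chain and their own rRNAs. All other mitochondrial proteins, including most respiratory chain subunits and all proteins of the mitochondrial ribosome, come from nuclear genes and are imported. Cardiomyocytes are packed with mitochondria, and mitochondrial transcripts make up a large part of the RNA of the heart. Cytosolic rRNA has no poly(A) tail and is mostly lost at poly(A) selection.

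The missing share may cover only part of the mitochondrial signal, because nuclear copies of mitochondrial DNA, which can draw mitochondrial reads, were still in the table. All 37 mitochondrial genes and all 354 nuclear rRNA genes of the GENCODE M21 annotation were absent, but 11 genes had transcripts matching a mitochondrial transcript at 95% identity or more over at least 200 bases. These are pseudogenes, stretches of the mitochondrial genome that were inserted into nuclear chromosomes. Of the 11 copies, 7 lie in a row on the minus strand of chr1:24611535-24616197 (GRCm38). The sequences below show why reads from a mitochondrial gene and from its copy can hardly be told apart. Each pair of lines gives the same stretch of a retained copy and of the mitochondrial gene it matches, 5′ to 3′ in transcript orientation from GENCODE M21, with the mismatched base in capitals.

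Gm29216: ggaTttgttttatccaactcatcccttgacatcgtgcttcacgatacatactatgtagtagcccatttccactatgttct
mt-Co1: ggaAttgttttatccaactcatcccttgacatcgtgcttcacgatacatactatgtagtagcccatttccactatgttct
Gm28438: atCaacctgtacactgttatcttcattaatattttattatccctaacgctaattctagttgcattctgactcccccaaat
mt-Nd3: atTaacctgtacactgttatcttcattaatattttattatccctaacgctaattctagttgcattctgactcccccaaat
Gm10222: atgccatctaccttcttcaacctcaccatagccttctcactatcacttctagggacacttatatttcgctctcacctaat
mt-Nd4l: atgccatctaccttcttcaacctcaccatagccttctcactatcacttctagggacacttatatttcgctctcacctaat

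Gm29216, the copy of the cytochrome oxidase subunit gene mt-Co1, matched it at 483 bases with 1 mismatch. Gm28437 matched mt-Co3, Gm28661 matched mt-Co2 and Gm10925 matched mt-Atp6 without a mismatch, over 783, 681 and 678 bases. The copies on chromosomes 2 and 13 were less alike, at 95.2% to 97.6% identity.

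The retained copies held a large part of the TPM, more than the removed genes in the low-share mice and about as much in the high-share mice, and they ran the other way. The missing share was 17.4%, 19.7% and 20.4% (lowest, median, highest) in low-share mice and 23.6%, 26.8% and 32.8% in high-share mice. The copies held 30.8%, 34.6% and 36.1% of the nominal TPM in low-share mice and 22.9%, 27.5% and 28.2% in high-share mice, without overlap. The sum of both was 49.7%, 53.5% and 55.8% in low-share mice against 46.5%, 52.2% and 59.2% in high-share mice, and here the groups overlapped over most of their range. No total of mitochondrial transcripts was measured, since the missing share also holds rRNA genes, and the groups are named below only by the share that chose them. Just inside the thresholds lay a WWP2Mut/Mut mouse at 20.4% and a WT mouse at 23.6%, and the WT mouse left out was at 20.7%.

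**Figure D1:**
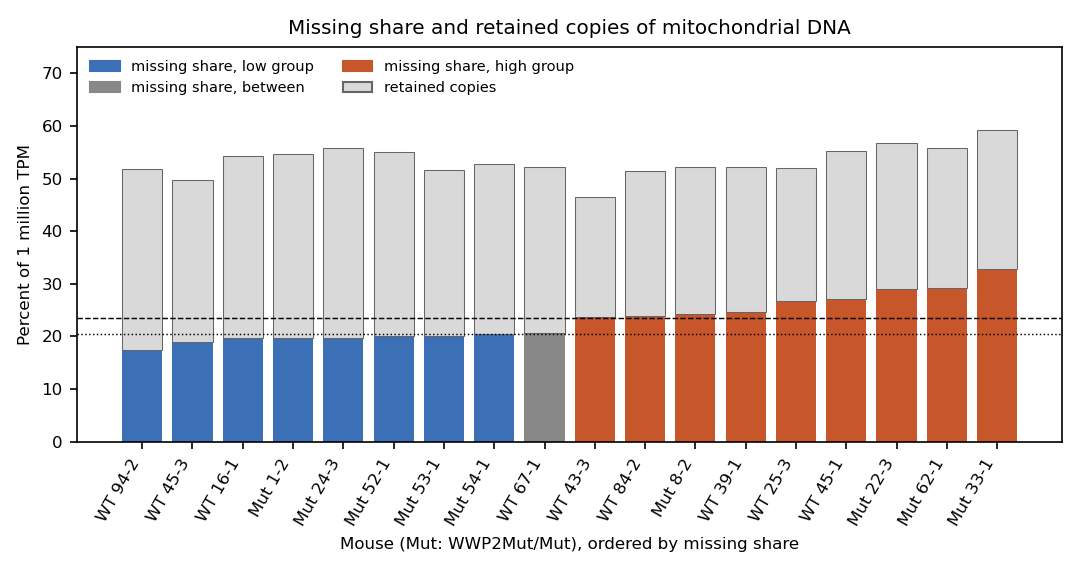
Shares of the TPM by mouse, in percent, for the missing share and, on top of it, the retained nuclear copies of mitochondrial DNA, as bars stacked for each of the 18 mice in order of missing share, with the thresholds as dashed and dotted lines. The copies ran from 30.8% to 36.1% in low-share mice and from 22.9% to 28.2% in high-share mice, and the sums overlapped.

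Single copies did not move together. The level of Gm29216 was 87539, 109641 and 122234 TPM in low-share mice and 38110, 61768 and 73532 TPM in high-share mice, a ratio of medians of 0.563. For Gm28437 the medians were 81264 and 65981 TPM, and for Gm10925 they were 44623 and 42108 TPM. Gm10222, the copy of the NADH dehydrogenase subunit gene mt-Nd4l, ran from 1735 to 4818 TPM in low-share mice and from 7482 to 16388 TPM in high-share mice. Gm28439, the copy of mt-Nd4, had median levels of 75.6 TPM and 198 TPM. Because these reads may belong to the removed genes, their differences are given as a description. The 11 copies are among the 24668 genes of the fit below, and without them 6924 genes were called in place of 6932.

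Genes with rRNA-like sequence can draw reads of the removed rRNA genes, so they too are given as a description. Gm42418, a locus that draws reads from cytosolic rRNA, had 922, 2309 and 7834 CPM (counts scaled to library size) in low-share mice and 460, 893 and 1897 CPM in high-share mice. Lars2, the mitochondrial leucyl-tRNA synthetase gene with an rRNA-like stretch, had median levels of 2504 CPM and 1323 CPM. How the missing share divides between mitochondrial and rRNA genes cannot be told from the table.

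The measures of RNA and library that accompany the samples separated the groups in 1 of 5 cases. The gene body coverage given for each mouse, a fraction whose calculation is not given in the sources used here, was 0.0383 to 0.0540 in low-share mice and 0.0288 to 0.0408 in high-share mice. The only high-share mouse within the low-share range was WT mouse 45-1. The mean difference was -0.0142 (two-sided exact permutation test over 24310 arrangements, p = 0.000123, adjusted p = 0.000617 over the 5 measures). The p of the same test was 0.732 for total counts, 0.797 for RNA concentration, 0.230 for the A260/280 ratio and 0.572 for the A260/230 ratio, and the adjusted p of each was 0.575 or more. Of these entries, 2 are in doubt: an A260/280 ratio of 214 in WT mouse 45-3 and an RNA concentration of 1.68 ng/µl in WT mouse 43-3. Without them the exact permutation p was 0.922 for A260/280 and 0.405 for RNA concentration. Gene fits with coverage as a covariate are given after the gene groups.

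**Figure D2:**
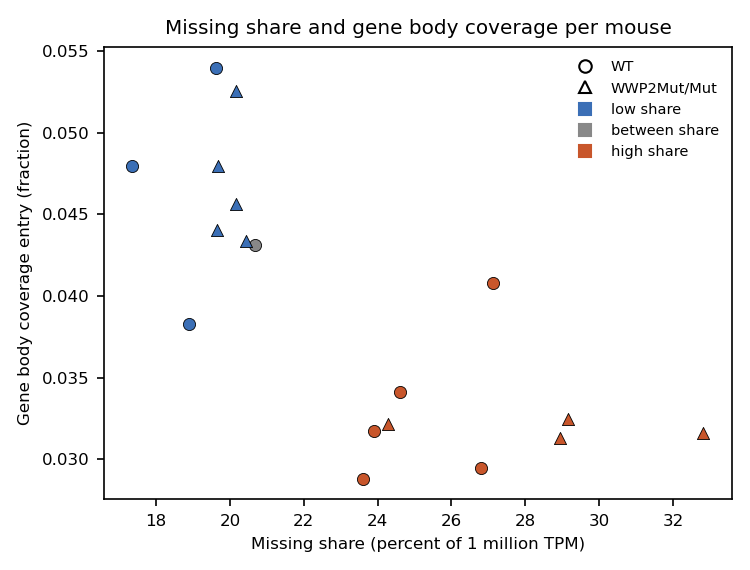
Gene body coverage (fraction) of each mouse against its missing share in percent, by genotype and share group. High-share mice ran from 0.0288 to 0.0408 and low-share mice from 0.0383 to 0.0540.

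Between high- and low-share mice, 6932 of 24668 genes (28.1%) changed at a false discovery rate (FDR) below 0.05 in edgeR's quasi-likelihood test with genotype as a covariate. Of these, 3662 rose in the high-share mice (14.8%) and 3270 fell (13.3%). In 693 genes (2.81%) every high-share mouse was above every low-share mouse, and in 598 genes (2.42%) every one was below. Of the 6081 called genes with a mean of at least 1 CPM, 5400 had the same sign in all 4 lanes and 6081 had it within both genotypes. These genes were called in the same mice, so this agreement is largely built in and is no replication. The division into higher and lower calls depended on the scale. On TPM as deposited, tested with limma on log2(TPM + 1), 6550 genes were higher (26.6%) and 1179 lower (4.78%). After each mouse was rescaled to the same TPM sum, 8508 were higher (34.5%) and 675 lower (2.74%), and with a pseudocount of 0.1 they were 8485 (34.4%) and 701 (2.84%). This rescaling divides by what the missing share leaves of the TPM, so it raises every gene in high-share mice relative to low-share mice by construction. The share that chose the groups thus enters that scale, and a turn of sign on it is no separate result. The median log2 fold change of all genes was -0.07 on counts, 0.02 on the deposited TPM, and 0.06 or 0.18 on the rescaled TPM with a pseudocount of 1 or 0.1. Directions given below are those on counts, relative to the other nuclear genes, and a group that turned on the TPM scale is named where it is described.

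The genes with the smallest p that rose are given next. Cpeb2, which binds the 3′ ends of mRNAs and controls their translation, had 5.80, 6.98 and 8.62 CPM in low-share mice and 13.4, 17.6 and 23.6 CPM in high-share mice. The groups did not overlap, and the log2 fold change was 1.37 (SE 0.12, adjusted p = 2.34e-06). Its relative Cpeb4 rose by 1.48 on the log2 scale (SE 0.16), Klhl24, an adaptor of a ubiquitin ligase complex, by 1.25 (SE 0.11), and Dsg2, a desmosomal cadherin of the intercalated disc, by 0.93 (SE 0.09). Aldh6a1, a mitochondrial enzyme of valine breakdown, had 59.3 to 114 CPM in low-share mice and 143 to 239 CPM in high-share mice, and Ankrd52, Arhgap5, Trim23, Mtm1, Map7 and Xpnpep3 were also without overlap. Of the genes with the smallest p that fell, Rps29, of the small ribosomal subunit, had 393, 523 and 587 CPM in low-share mice and 260, 274 and 337 CPM in high-share mice, so that the groups did not overlap, with a log2 fold change of -0.82 (SE 0.08, adjusted p = 4.24e-06). Ndufa2, Ndufa5 and Ndufa6 of respiratory complex I, the complex I assembly factor Ndufaf8, the cytokine gene Mif and Hint2 fell by 0.74 to 0.93 on the log2 scale, again without overlap.

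The calls followed the length of the transcript. Over the 13014 genes with a mean of at least 1 CPM and an annotated length, Spearman's rho between transcript length and log2 fold change was 0.48, and for GC content it was -0.35. These are correlations across genes that share the same 17 libraries. Among 482 genes with transcripts under 750 bases, 76.8% fell and 3.73% rose, with a median log2 fold change of -0.62. Among 1729 genes of 750 to 1499 bases, 52.8% fell and 4.22% rose, with a median of -0.32. Among 4350 genes of 1500 to 2999 bases, 19.7% fell and 17.2% rose, with a median of -0.04. Among 3202 genes of 3000 to 4499 bases, 11.1% fell and 34.1% rose, with a median of 0.13. Among 405 genes of 9000 bases or more, 4.44% fell and 48.1% rose, with a median of 0.31. Short transcripts were thus lower and long transcripts higher in the mice with a high missing share, and those mice had the lower gene body coverage.

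**Figure D3:**
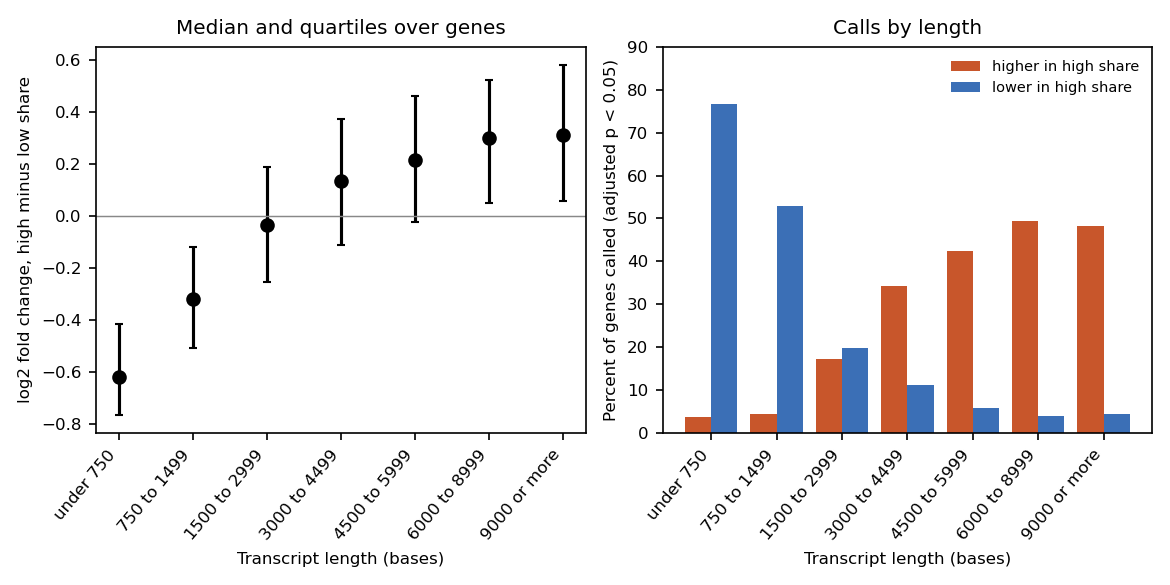
Log2 fold change, high-share minus low-share, of genes by class of transcript length in bases (median and quartiles), with the share of genes called in each direction. The median ran from -0.62 under 750 bases to 0.31 at 9000 bases or more.

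Cytosolic ribosomal protein genes, whose products build the ribosome together with rRNA, all fell. Of 79 tested, 79 were lower (against 13.3% of all genes), with a median log2 fold change of -0.66 and a median transcript of 878 bases. Their summed level was 27063 to 38654 CPM in low-share mice and 17881 to 26020 CPM in high-share mice, without overlap. The change ran from -0.93 for Rpl38 to -0.26 for Rpl4, and 51 of the 79 genes had no overlap (against 2.42% of all genes). The 29 genes with transcripts under 750 bases had a median of -0.75, the 39 of 750 to 1499 bases -0.64, and the 9 of 1500 to 2999 bases -0.44, where all genes of these lengths had -0.62, -0.32 and -0.04. On rescaled TPM the median of the list was -0.24, with 47 lower and 3 higher, where 2.74% of all genes were lower and 34.5% higher on that scale. Ribosomal protein genes have many processed pseudogenes that can share their reads, so single values are uncertain. This holds also for Gm11808 and Gm2000, gene models of about the same length that fell by 1.06 and 1.49.

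Most nuclear genes of the respiratory chain fell in complexes I, III, IV and V. In complex I, which takes electrons from NADH, 34 of 37 genes were lower (against 13.3% of all genes) and 1 higher, with a median log2 fold change of -0.61 and a median transcript of 908 bases. In complex III 7 of 9 were lower and 1 higher (median -0.49, 1363 bases), in complex IV 14 of 14 were lower (median -0.62, 631.5 bases), and in complex V, the ATP synthase, 12 of 16 were lower (median -0.60, 823.5 bases). Short transcripts fell generally: the 36 respiratory chain genes under 750 bases had a median of -0.66, close to the -0.62 of all genes of that length, of which 76.8% were lower. The 25 of 750 to 1499 bases had -0.56, where all genes had -0.32 and 52.8% were lower, and the 15 of 1500 to 2999 bases had -0.18, where all genes had -0.04. Complex II, the only one without a subunit from the mitochondrial genome, had 1 of 4 genes higher and 1 lower. On rescaled TPM the medians of complexes I, IV and V were -0.15, -0.19 and -0.19, and complex III was at -0.03 with 4 higher and 3 lower, where 34.5% of all genes were higher and 2.74% lower.

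Members of a complex differed, and long transcripts were among the exceptions. Atp5e, the epsilon subunit of the ATP synthase with a transcript of 421 bases, had 601, 801 and 1138 CPM in low-share mice and 306, 387 and 581 CPM in high-share mice. The groups did not overlap, and the log2 fold change was -0.997 (SE 0.15, adjusted p = 3.92e-05). Atp5b, the catalytic beta subunit with a transcript of 1916 bases, had 5620, 6207 and 7039 CPM against 5373, 5807 and 6518 CPM, with wide overlap and a log2 fold change of -0.08 (SE 0.08, adjusted p = 0.511). In complex IV, Cox6a2, the subunit particular to heart and muscle, had 2144 to 2998 CPM in low-share and 1363 to 2084 CPM in high-share mice, and Cox7a1 and Cox6c fell by 0.71 and 0.81. In complex III, the small Uqcr11 fell by 0.85 (SE 0.11) and the core protein gene Uqcrc2 rose by 0.44 (SE 0.10; -0.026 with gene body coverage as a covariate). In complex I the exception was Ndufs1, the largest subunit, with 352, 429 and 570 CPM in low-share mice and 606, 634 and 766 CPM in high-share mice, without overlap, and a log2 fold change of 0.57 (SE 0.10, adjusted p = 0.000131). In complex II the flavoprotein gene Sdha, with a transcript of 2900 bases, rose by 0.45 (SE 0.09), and the iron-sulfur protein gene Sdhb, with 1142 bases, fell by 0.36 (SE 0.08). Sdhb turned to 0.10 on rescaled TPM.

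**Figure D4:**
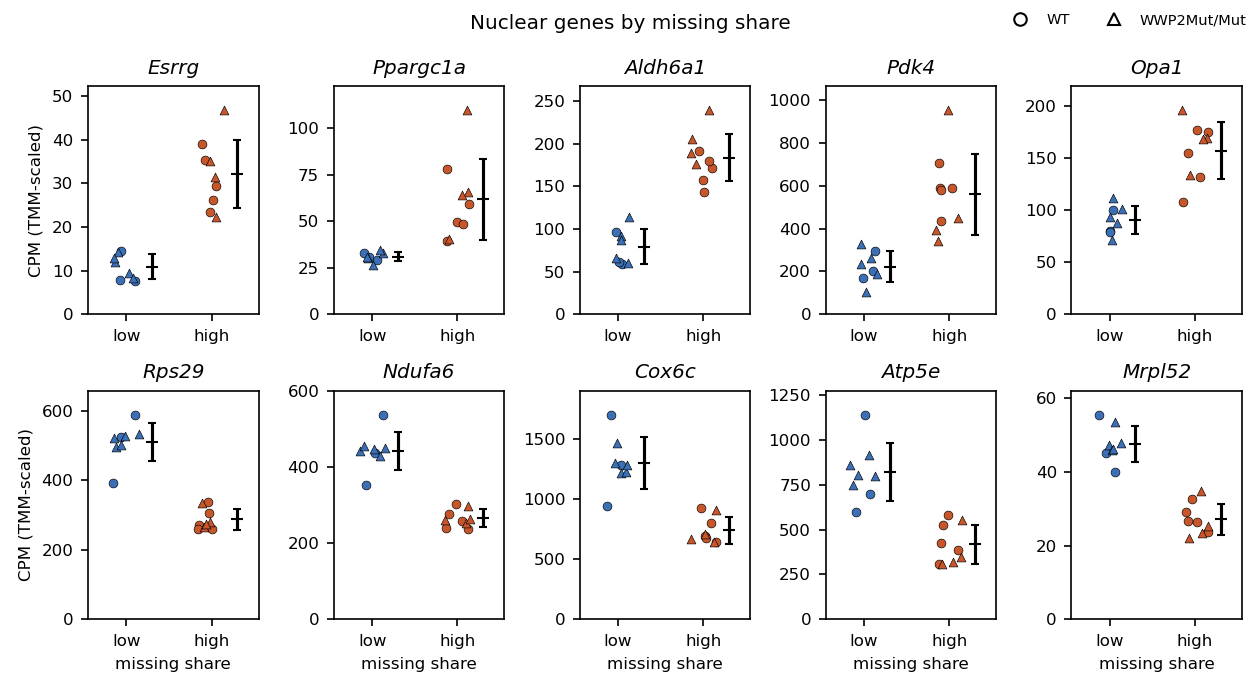
Level in CPM of 10 genes in low-share and high-share mice, with WT mice as circles, WWP2Mut/Mut mice as triangles and the mean with its SD as bars. The upper row holds genes that rose, such as Esrrg from at most 14.5 CPM to at least 22.3 CPM, and the lower row genes that fell, such as Rps29 from at least 393 CPM to at most 337 CPM.

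Mitochondrial ribosomal proteins, which translate the mitochondrial mRNAs, were lower in 53 of 80 genes (against 13.3% of all genes) and higher in 1, with a median log2 fold change of -0.32 and a median transcript of 1324 bases. Under 3000 bases they were near other genes of their length. The 12 under 750 bases had a median of -0.57, the 35 of 750 to 1499 bases -0.36 and the 15 of 1500 to 2999 bases 0.04, where all genes had -0.62, -0.32 and -0.04. Longer ones were below other genes of their length. The 13 of 3000 to 4499 bases had -0.12, the 3 of 4500 to 5999 bases -0.21 and the 2 of 6000 to 8999 bases -0.36, where all genes had 0.13, 0.21 and 0.30. Mrpl52 had 39.9, 46.8 and 55.4 CPM in low-share mice and 22, 26.5 and 34.8 CPM in high-share mice, without overlap (log2 fold change -0.81, SE 0.10, adjusted p = 7.87e-06). Mrps21 fell by 0.72 (SE 0.09). Mrpl42, with the higher levels of 317 to 411 CPM and 230 to 356 CPM, fell by 0.25 (SE 0.08, adjusted p = 0.0256) and turned to 0.22 on rescaled TPM. The direction of this list depended on the scale: on rescaled TPM its median was 0.08, with 29 higher and 10 lower, where 34.5% of all genes were higher and 2.74% lower on that scale.

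Genes for the upkeep and expression of the mitochondrial genome rose in 11 of 33 cases (against 14.8% of all genes) and fell in 3, with a median log2 fold change of 0.15 and a median transcript of 2604 bases. Among all genes of 1500 to 2999 bases 17.2% rose, and among those of 3000 to 4499 bases 34.1%. Tfb2m, a transcription factor of mitochondrial DNA, had 27.6, 37.0 and 48.2 CPM in low-share mice and 47.9, 51.4 and 61.7 CPM in high-share mice, and rose by 0.53 (SE 0.09, adjusted p = 0.000243). Tfam, which packages and transcribes mitochondrial DNA, rose by 0.27 (SE 0.10, adjusted p = 0.0421; -0.14 when coverage was a covariate), and the RNA-degrading enzyme gene Pnpt1 by 0.51 (SE 0.09). Slirp, whose product stabilizes mitochondrial mRNAs, went the other way, with 37.7 to 56.4 CPM in low-share mice and 25 to 36.3 CPM in high-share mice.

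Of 15 regulators of mitochondrial biogenesis, 10 rose (against 14.8% of all genes) and 0 fell, with a median log2 fold change of 0.56 and a median transcript of 4196 bases. Among all genes of 3000 to 4499 bases 34.1% rose, and among those of 4500 to 5999 bases 42.5%. Esrrg, a nuclear receptor that drives oxidative metabolism in the heart, had 7.66, 10.7 and 14.5 CPM in low-share mice and 22.3, 31.4 and 46.7 CPM in high-share mice. The groups did not overlap, and the log2 fold change was 1.58 (SE 0.16, adjusted p = 4.24e-06). Ppargc1a, the coactivator PGC-1alpha, had 26.6, 30.8 and 34.6 CPM against 39.6, 59.2 and 109 CPM, again without overlap, and rose by 1.01 (SE 0.15, adjusted p = 3.64e-05). Ppara, the receptor for fatty acids, had 2.60 to 5.13 CPM in low-share mice and 2.29 to 32.3 CPM in high-share mice, with a log2 fold change of 2.33 (SE 0.32), and at least 1 high-share mouse was below the low-share range. Prkaa2, a catalytic subunit of AMP-activated kinase, rose by 1.07 (SE 0.14), Gabpa by 0.70 (SE 0.09) and Perm1, a muscle regulator induced by PGC-1, by 0.56 (SE 0.10). Esrra, the more abundant relative of Esrrg, had 123 to 170 CPM and 129 to 183 CPM (log2 fold change 0.19, SE 0.09, adjusted p = 0.148). On rescaled TPM 14 of the 15 were higher, against 34.5% of all genes on that scale.

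Enzymes of the tricarboxylic acid (TCA) cycle rose in 12 of 18 cases (against 14.8% of all genes) and fell in 1, with a median log2 fold change of 0.37 and a median transcript of 2525 bases. Pdha1, which encodes a subunit of pyruvate dehydrogenase, had 576, 683 and 880 CPM in low-share mice and 923, 1072 and 1263 CPM in high-share mice, without overlap, and rose by 0.63 (SE 0.09). Ogdh was also without overlap and rose by 0.61, and citrate synthase, Cs, rose by 0.40. Idh2, a mitochondrial isocitrate dehydrogenase with a transcript of 1745 bases with medians of 2300 and 1931 CPM, was at -0.19 (SE 0.10, adjusted p = 0.156), and at 0.23 on rescaled TPM. Of 25 genes of fatty acid oxidation, 11 rose and 4 fell, the latter near the 13.3% of all genes (median 0.16, 2048 bases). Pdk4, which turns off pyruvate dehydrogenase when fat is burned, had 103, 218 and 326 CPM in low-share mice and 342, 583 and 953 CPM in high-share mice, without overlap (log2 fold change 1.31, SE 0.21). The fatty acid transporter gene Cd36 rose by 0.64 and Acsl1, which activates long-chain fatty acids, by 0.83, while the electron transfer flavoprotein gene Etfb, of 893 bases, fell by 0.66. Fabp3, the fatty acid-binding protein of heart muscle, had medians of 4971 and 4246 CPM (log2 fold change -0.23, adjusted p = 0.0911, and 0.24 on rescaled TPM).

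The counts of the following lists are to be read against 14.8% higher and 13.3% lower among all genes. Glycolysis genes rose in 2 and fell in 6 of 19 cases (median -0.12 at a median of 2027 bases, and 0.42 on rescaled TPM). The muscle phosphoglycerate mutase gene Pgam2 fell by 0.56 (SE 0.08), and Gapdh was at -0.21 (SE 0.09, adjusted p = 0.0684, and 0.0704 on rescaled TPM). Genes of mitochondrial import and dynamics divided, with 9 of 31 higher and 8 lower (median -0.09 at 1894 bases, and 0.35 on rescaled TPM). Those that rose included the fusion genes Opa1 (0.82, SE 0.11) and Mfn2 (0.58, SE 0.09), and those that fell included Fis1 of mitochondrial fission (-0.70, SE 0.10) and the small import chaperone gene Timm13 (-0.72, SE 0.09). Of 30 genes of rRNA synthesis and processing, 5 rose and 8 fell (median -0.05 at 2043 bases, and 0.36 on rescaled TPM). Fbl, the rRNA methyltransferase fibrillarin, had 30.4 to 35.8 CPM in low-share mice and 22.2 to 28.2 CPM in high-share mice, and turned to 0.064 on rescaled TPM. Nhp2 fell by 0.61 (SE 0.11), and Dkc1, the pseudouridine synthase of the same particle as Nhp2, rose by 0.42 (SE 0.08).

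**Figure D5:**
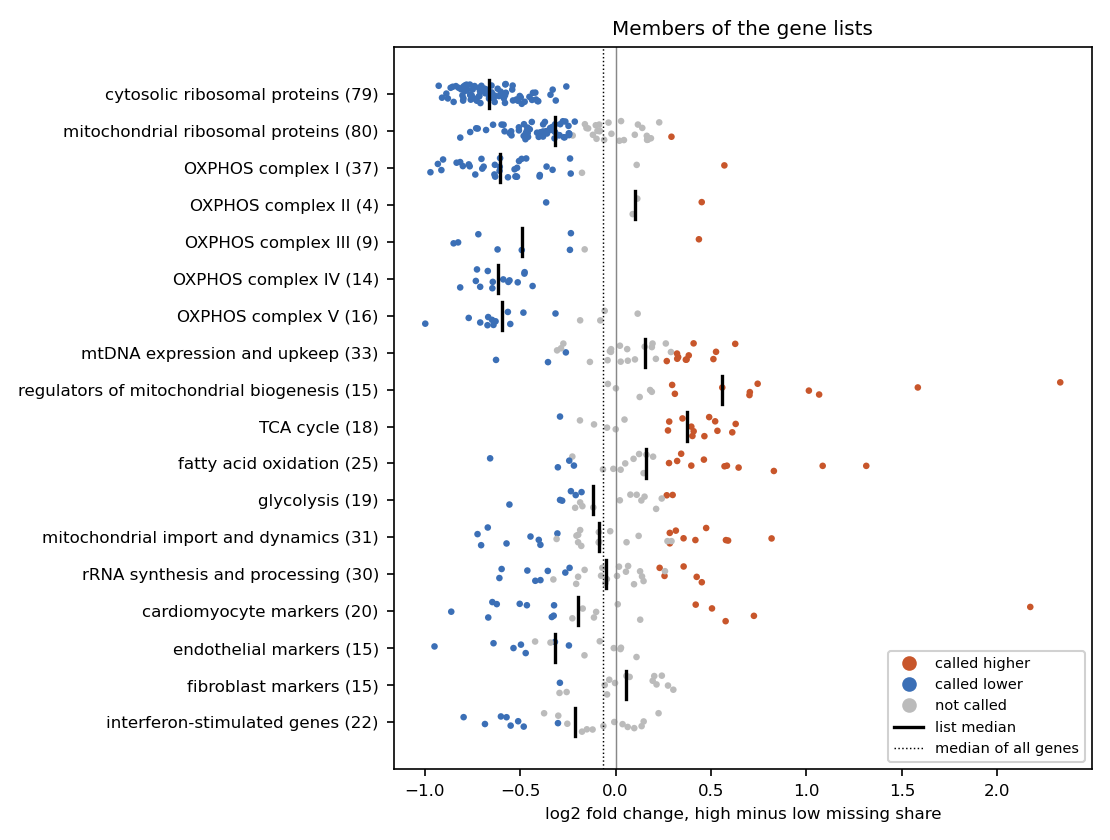
Log2 fold change, high-share minus low-share, of the members of 18 gene lists, 1 point a gene, colored by its call, with the median of each list as a vertical bar and that of all genes as a dotted line. Cytosolic ribosomal proteins lay at -0.66 with 79 of 79 lower, and regulators of mitochondrial biogenesis at 0.56 with 10 of 15 higher.

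The markers of cell types were examined because tissue pieces can differ in their makeup, and in bulk samples fewer cells of a type and less RNA per cell cannot be told apart. The ventricular light chain gene Myl2 was at 9537 CPM or more in all 17 mice. Of 20 cardiomyocyte markers, 5 rose and 9 fell, against 14.8% and 13.3% of all genes (median -0.20 at 1479.5 bases, and 0.25 on rescaled TPM), and their summed level was 121923 to 149874 CPM in low-share mice and 101575 to 125307 CPM in high-share mice. Among the markers that rose, the calcium pump gene Atp2a2 had 6125, 7089 and 8215 CPM against 8442, 10377 and 13630 CPM, without overlap (log2 fold change 0.58, SE 0.10), and Ryr2, the calcium release channel with a transcript of 16814 bases, rose by 0.72 (SE 0.13). The exchanger gene Slc8a1 had 11.5, 15.0 and 30.2 CPM in low-share and 11.1, 80.9 and 153 CPM in high-share mice, and rose by 2.17 (SE 0.35) with overlap. Its value turned to -0.27 when coverage was a covariate and to -0.21 per SD of the sum of missing share and copies. Among those that fell were genes of short transcripts for contractile and oxygen-binding proteins. Troponin I, Tnni3, had 6168, 7502 and 8750 CPM in low-share and 4297, 4425 and 5802 CPM in high-share mice, without overlap (log2 fold change -0.67, SE 0.10), and myoglobin, Mb, fell by 0.46 (SE 0.09).

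Atrial transcripts were found in some of the high-share mice. The atrial light chain gene Myl7 was at 0.06 to 4.91 CPM in low-share mice, at 25.5 to 164 CPM in 5 high-share mice and at 0.10 to 0.71 CPM in the other 4. Of 12 atrial markers 7 were higher (against 14.8% of all genes) and 1, Nppa, was lower (against 13.3%); the sarcoplasmic reticulum peptide gene Sln, Myl7, the peptide-amidating enzyme gene Pam and the channel gene Kcnj3 were among those higher. The summed level of the list was 1054 to 1523 CPM in low-share and 1009 to 1917 CPM in high-share mice. Without those 5 mice, chosen after their values were seen, 5741 genes were called, 3504 higher and 2237 lower. The counts were then 77 of 79 lower for cytosolic ribosomal proteins, 32 of 37 lower for complex I, 14 of 14 for complex IV, 10 of 15 higher for regulators of biogenesis and 11 of 18 for the TCA cycle, and the atrial list had a median of -0.07. With the summed atrial and liver levels as covariates, 6924 genes were called.

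Of all genes 14.8% rose and 13.3% fell, and several of the following lists were near these shares. Of 15 fibroblast markers 0 rose and 1 fell, and of 14 activated fibroblast markers 0 rose and 1, the smooth muscle actin gene Acta2, fell (-0.57, SE 0.16). Periostin, Postn, a marker of activated fibroblasts, had 40.2, 69.3 and 107 CPM in low-share mice and 46.9, 91.6 and 130 CPM in high-share mice (log2 fold change 0.24, SE 0.21, adjusted p = 0.423). Of 15 endothelial markers 7 fell and 0 rose (median -0.32 at 3283 bases, and 0.20 on rescaled TPM); Egfl7, a secreted endothelial protein, had 144 to 251 CPM in low-share and 77.3 to 126 CPM in high-share mice, without overlap. Of 14 smooth muscle and pericyte markers 4 fell and 1, the channel subunit gene Abcc9, rose (0.70, SE 0.14). Of 20 immune markers 2 rose and 3 fell, among them the complement gene C1qa (-0.37, SE 0.09; 0.08 on rescaled TPM). The erythrocyte list had 2 of 8 lower, with Hbb-bs at 446 to 1214 CPM in low-share and 103 to 757 CPM in high-share mice. Of 11 adipocyte markers 1 rose and 2 fell. The median log2 fold change of these 11 was 0.92 (median SE 0.68), with 4 of them below 0, so most members did not follow the sum. Their summed level was 854 to 1279 CPM in low-share and 605 to 853 CPM in high-share mice. In that sum Fabp4, of fat and capillary cells, had 650 to 1055 CPM in low-share mice. Of 18 liver genes 0 were called, and their summed level was 73.4 to 442 CPM in low-share and 47.1 to 715 CPM in high-share mice. The part of these markers in the differences of other genes was not tested beyond the values given.

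The share groups differed in gene body coverage, so the gene tests were repeated with coverage in the model. With coverage as a covariate, 2 genes were called between the share groups by edgeR (0.00811%), and 3095 had an unadjusted p under 0.05. Coverage and share group nearly coincided in these mice, so this fit cannot tell them apart. The loss of calls therefore assigns the gene differences to neither. The coverage term in that model called 1702 genes (6.9%). With coverage in place of the share group, 8390 genes were called, of which 6289 were called in the same direction by share group. Medians under the covariate were -0.52 for cytosolic ribosomal proteins, -0.47 for complex I, 0.28 for regulators of biogenesis and 0.02 for the TCA cycle, with 0 members called in each. Without the covariate they were -0.66, -0.61, 0.56 and 0.37. When the sum of missing share and retained copies took the place of the missing share, as a continuous term over all 18 mice, 1 gene was called (0.00403%) and 2036 had an unadjusted p under 0.05. Of 93 genes followed through the alternatives, 20 then had the opposite sign, and 0 members of any list were called.

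The missing share was spread over both genotypes. It was 22.5% ± 3.5 (SD, n = 9) in WT and 23.9% ± 5.1 (SD, n = 9) in WWP2Mut/Mut mice, a difference of 1.41 percentage points (two-sided exact permutation test, p = 0.504). Within lanes 1 to 4 it was 6.34, -2.62, -1.78 and 3.28. The effect of the share group did not differ detectably between genotypes: 0 of 24668 genes (0.0%) were called by edgeR's interaction term, and 644 had an unadjusted p under 0.05. With only 3 WT mice in the low-share group, this test could miss differences. The median log2 fold change within WT and within WWP2Mut/Mut mice was -0.58 and -0.74 for cytosolic ribosomal proteins, -0.57 and -0.62 for complex I, and 0.51 and 0.60 for regulators of biogenesis. Between genotypes, with lane, RNA concentration and the missing share as covariates, edgeR called 1 of 24804 genes (0.00403%), Wwp2 itself, and 1606 had an unadjusted p under 0.05. With the study's covariates of lane and RNA concentration alone, edgeR called 1, and 908 had an unadjusted p under 0.05. The study itself used DESeq2 and tested gene sets, reporting TGFβ signaling and extracellular matrix sets as lower in WWP2Mut/Mut mice. Gene sets were not tested between genotypes here. Wwp2 was at 23.4 to 27.2 CPM in all WT mice, and at 6.39 to 16.2 CPM in WWP2Mut/Mut mice, so the genotypes did not overlap. Its change with share was -0.30 (SE 0.12, adjusted p = 0.0754).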

How the data were processed

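Poly(A)-selected RNA of the left ventricle was sequenced from 9 WT and 9 WWP2Mut/Mut mice, all given AngII. The authors aligned reads to mouse genome m38 with STAR 2.5.2b, quantified Ensembl 89 genes with RSEM 1.2.31 and removed rRNA and mitochondrial genes. They deposited expected counts per gene and TPM of the same genes for 51435 genes, 99.6% with a symbol, and a table of RNA and library measures with a gene body coverage fraction (per the file headers a bottom-half value), RNA concentration and absorbance ratios (other deposited measures). Of the count values 5.11% were not whole.

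The missing share was computed as the part of the nominal TPM total that the column sum did not reach, in percent. The rule of 23.5% and 20.5%, the members and all gene lists were chosen with earlier results of these data known. Retained copies were found with blastn 2.17.0 between GENCODE M21 transcripts and mitochondrial transcripts, and transcript length is that of the principal transcript.

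Expected counts were rounded and tested with edgeR 4.0.16 (TMM, glmQLFit, glmQLFTest, R 4.3.3) over genes whose total exceeded 1 count, with genotype as a covariate. P values were adjusted by Benjamini-Hochberg. CPM are TMM-scaled, and SE is the fold change divided by the square root of F. DESeq2 1.42.0, limma 3.58.1 on log2(TPM + pseudocount), other size factors, filters, covariates and thresholds, and each mouse left out were alternatives. Exact two-sided permutation tests were used for single values (numpy 2.4.6). Replicates are separate mice, and p values measure the spread between them. The scripts were tested on simulated data. Named genes were Wwp2, the 12 with the smallest p in each direction at a mean of 1 CPM or more, and of each list the 3 with the smallest p, the 2 most abundant and those called. The 93 genes followed through the alternatives are a subset of these, picked with values known. Results of some genes are not reported here.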

Additional observations from a re-analysis of the deposited data

Results flagged for a closer look

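In each share group, the highest or lowest mouse was singled out where it stood apart from its nearest neighbor by more than Dixon's critical fraction of the range. Of 212 groups of values tested, 14 held such a mouse, where chance gives about 1 in 20. No explanation of these values was tested.

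The A260/280 ratio of WT mouse 45-3 is entered as 214, where the other low-share mice had 2.08 to 2.17. Gene body coverage was 0.0408 in WT mouse 45-1, where the other high-share mice had 0.0288 to 0.0341. The sum of liver genes was 715 CPM in the same mouse, where the other high-share mice had 47.1 to 322 CPM, and its Alb level was 249 CPM against 0.135 to 59.7 CPM. Among low-share mice, WT mouse 16-1 had the sum of liver genes at 442 CPM against 73.4 to 222 CPM, Alb at 155 CPM against 8.03 to 56.3 CPM and Gm2000 at 79.95 CPM against 28.7 to 52.5 CPM. Alb is the albumin gene of liver.

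WWP2Mut/Mut mouse 33-1, with the highest missing share, was also the highest of the high-share mice in Dsg2 (79.2 CPM, others 47.9 to 63.0), Ndufs1 (766 CPM, others 606 to 655) and Sdha (1655 CPM, others 1248 to 1430). WT mouse 45-3 was the lowest of the low-share mice in Rps29 (393 CPM, others 496 to 587). WWP2Mut/Mut mouse 53-1 was the highest of them in Fabp3 (6375 CPM, others 4180 to 5119) and in Myl7 (4.91 CPM, others 0.0591 to 1.503). WT mouse 43-3 had the lowest sum of adipocyte markers among high-share mice, at 605 CPM against 771 to 853 CPM.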

How the results depend on the processing

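The count of 6932 genes was between 5824 and 7823 with each mouse left out, and 6110 to 9186 under the alternatives of size factors, filter, tool, covariates of lane, concentration, atrial and liver sums, threshold, continuous share and scale. It was 5741 without the 5 mice with atrial transcripts, picked at a Myl7 level of 20 CPM set after the values were seen. With gene body coverage as a covariate it was 2, and with the sum of missing share and retained copies 1. The sum, the fit without those 5 mice, the fit without the retained copies (6924) and coverage in place of the share (8390) were chosen after seeing the data. No paired analysis was possible because no full mouse number recurs between share groups or genotypes, and only 1 first part of a number (45) is found in both share groups.

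With a mouse left out, differences in measures that had not passed a test changed sign. That of total counts ran from -1769923 to 70661 (without WWP2Mut/Mut mouse 1-2), with 29298 without mouse 33-1, that of RNA concentration from -11.7 (without mouse 62-1) to 28.2 ng/µl and that of A260/230 from -0.0079 (without mouse 53-1) to 0.188. The share between genotypes was -2.62 and -1.78 points in lanes 2 and 3. The sum of missing share and copies, examined after its values were seen, was 3.86, -0.36, 4.42 and 5.07 points higher in WWP2Mut/Mut mice in lanes 1 to 4; a lane holds too few mice to pass an exact test.

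On rescaled TPM with a pseudocount of 1 or 0.1, the median of mitochondrial ribosomal proteins was 0.083 and 0.084, that of the retained copies 0.0757 and 0.0757, and single values were Sdhb 0.10 and 0.10, Idh2 0.23 and 0.23, Fabp3 0.24 and 0.24, Gapdh 0.0704 and 0.0704, Fbl 0.064 and 0.066, C1qa 0.085 and 0.086, Mrpl42 0.22 and 0.22 and Wwp2 0.12 and 0.14. On deposited TPM, Wwp2 was 0.016, Idh2 0.084, Fabp3 0.090 and Mrpl42 0.068. With coverage as a covariate, Wwp2 was 0.13, Uqcrc2 -0.026, Tfam -0.14, Slc8a1 -0.27, Alb 0.90, Postn -0.39 and Esrra -0.14. Wwp2 was 0.094 without the genotype covariate. Postn was -0.064 with lane and concentration, -0.0050 with atrial and liver sums and -0.0025 with the continuous share. Without the 5 mice, the atrial list was -0.074, Myl7 -1.30 and Sln -1.24, and in lane 1 Myl7 was -0.50 and Sln -0.14. Tfam was -0.016 in lane 2.

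With the sum of missing share and copies, per SD, the medians were -0.018 for the TCA cycle, 0.059 for the retained copies and -0.0033 for atrial markers. Single genes that changed sign there were Gm2000 0.0020, Fam173a 0.0052, Ndufa5 0.029, Uqcrc2 -0.064, Atp5b 0.0011, Prkaa2 -0.0016, Pnpt1 -0.053, Tfam -0.056, Idh2 0.038, Acsl1 -0.043, Mfn2 -0.0024, Slc8a1 -0.21, Egfl7 0.064, Fabp4 0.044, Myl7 -0.31, Pam -0.057, Ddit3 0.043, Alb 1.01, Postn -0.30 and Esrra -0.098. The cause of these changes was not tested. Of the 93 genes, 81 kept their direction and lost their call with coverage as a covariate.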

Other observations

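The counts in this paragraph are to be read against 14.8% of all genes higher and 13.3% lower in the high-share mice, and 0 members of these lists were called with gene body coverage as a covariate. Interferon-stimulated genes, which respond to antiviral signals, were lower in 8 of 22 cases in the high-share mice and higher in 0 (median log2 fold change -0.21 at a median transcript of 2783 bases, and 0.18 on rescaled TPM). Bst2, a membrane protein that holds back budding virus, had 36.5, 39.7 and 54.1 CPM in low-share mice and 19.3, 28.7 and 33 CPM in high-share mice, without overlap (log2 fold change -0.60, SE 0.11). Genes of the mitochondrial stress response divided, with 4 of 21 higher and 5 lower. Chac1, which breaks down glutathione, rose by 0.87 (SE 0.21), and Ddit3, the stress transcription factor CHOP, fell by 0.70 (SE 0.11), as did Clpp, a mitochondrial protease, by 0.54 (SE 0.08). Of 15 hypoxia genes 3 rose and 3 fell, and Pdk1, which turns off pyruvate dehydrogenase, was among those that rose (0.65, SE 0.09). Of 23 immediate early genes 1 rose and 2 fell, of 16 heat shock genes 1 rose and 2 fell, of 12 cardiac stress genes 1 rose and 1 fell (Nppa), and of 10 Schwann and neuronal markers 1 rose and 2 fell. Nppb, a natriuretic peptide gene of the stressed ventricle, had 230 to 833 CPM and 117 to 846 CPM (adjusted p = 0.0564 from edgeR). Of 21 RNAs that lack a poly(A) tail 1 rose and 4 fell.

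The sum of missing share and retained copies was 51.7% ± 2.5 (SD, n = 9) in WT and 54.8% ± 2.4 (SD, n = 9) in WWP2Mut/Mut mice. The difference was 3.14 points (two-sided exact permutation test, p = 0.0128, among 3 such measures compared between genotypes, and chosen after the values were seen). For the copies alone the p was 0.358.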
